A study of Mus musculus with 33 samples.

Results

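The 36 genes described here are markers of the cells of blood vessels: 24 of endothelial cells, 7 of pericytes and 5 of smooth muscle. They were taken by gene symbol from the 21565 genes of a table of mouse frontal cortex RNA-seq, which lists all 36. The rule names the genes and uses no threshold on a value, but the list was drawn up with earlier results of these data known. The study asked how loss of sleep changes the cortical transcriptome, and what part the transcription factor MEF2C has in that change. Frontal cortex RNA of 33 mice was sequenced in 7 groups. Wild type (WT) mice were in control sleep (CS, n = 6), sleep deprivation (SD, n = 7) or recovery sleep (RS, n = 7). Mef2c f/f mice, which carry loxP sites at both Mef2c alleles, were in CS (n = 4) or SD (n = 3), and so were Mef2c-cKO mice (n = 3 each).

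All mice were adult males with a C57BL/6J background. They had been kept in constant darkness before sampling and were sampled at the same hour, ZT 6. CS mice slept ad libitum. SD mice were kept awake for 6 hr on a slowly moving treadmill, and RS mice had 4 hr of it followed by 2 hr in which they could sleep. In Mef2c-cKO mice the floxed exon is removed by a Cre recombinase under a Camk2a promoter, which acts in excitatory neurons of the forebrain and was not aimed at vascular cells. The study's methods add that some of these mice also carried 1 recombined allele in the tail, so that a lower dose of Mef2c in other cell types may contribute to their values. Of the Mef2c-cKO CS samples in a heat map of the study, 2 had such recombination and 1 did not. Mef2c f/f mice served as the control for Mef2c-cKO mice.

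Endothelial cells line the vessels, and in the brain they are sealed by tight junctions and carry transporters that form the blood-brain barrier. Pericytes sit in the wall of capillaries, and smooth muscle cells ring arterioles and set their width. Both mural cell types are recruited by signals from the endothelium, and blood flow along the vessel wall controls endothelial transcription factors such as KLF2 and KLF4.

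The values are rescaled CPM (CPM are read counts scaled to the depth of a library, here divided by a median-of-ratios factor), and tests were made with limma on log2(rescaled CPM + 0.5) over every gene whose CPM was 1 or more throughout the replicates of a compared group. A gene was called a DEG at a p of 0.05 or less, Benjamini-Hochberg adjusted over all genes tested, together with a log2 fold change of 0.3 or more in size. "Higher" and "lower" counts below are counts of DEGs. Libraries held 18935045 to 249046089 reads. The vascular markers were present as the label says. No gene among the 36 was at 0 in all libraries of a group, 31 of 36 reached a CPM of 1 in all WT CS libraries, and 35 of 36 did so in all WT SD libraries. Cnn1, a smooth muscle calponin, stayed at 0.0741 to 0.548 rescaled CPM in WT CS and passed the filter in no comparison. Des, the muscle intermediate filament desmin, was tested only where WT SD entered. Cspg5 stands in the pericyte list, although it is better known as a proteoglycan of neural cells than as a pericyte gene.

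Per kilobase of the longest transcript, the vascular genes covered a wide range of levels in WT CS. Rgs5, a pericyte regulator of G-protein signalling, was at 26.9 ± 8.06 rescaled CPM per kb (SD, n = 6), Slco1a4 at 26.7 ± 3.33 and Slco1c1 at 25.5 ± 3.86, so that the order of these 3 lay within their spread. Vtn, which codes for vitronectin, followed at 21.9 ± 3.70, and Ly6c1, an endothelial surface protein, at 18.4 ± 2.79. At the other end were Klf2 with 0.651 ± 0.270, Des with 0.304 ± 0.0826 and Cnn1 with 0.116 ± 0.0733.

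In WT mice 18 of the 35 vascular genes tested were DEGs between SD and CS, 13 higher and 5 lower in SD. This is a share near that of all genes, since 45.1% of 12913 genes were DEGs in the same comparison, 24.6% higher and 20.5% lower. Klf2, Egfl7 and Des, counted as higher, and Higd1b, not a DEG, reached a CPM of 1 in all SD but not all CS libraries. They passed the filter only through the group where they were higher, so their rises lend the split no support. Without the filter Klf2 and Des stayed DEGs and Egfl7 did not. The median log2 fold change was 0.31 over the 35 vascular genes, Klf2, Egfl7, Des and Higd1b included, and 0.04 over all genes tested. Those that rose were the smooth muscle genes Tagln, Acta2 and Des, the factors Klf2 and Klf4, Cldn5, Vwf, Ly6a, Tie1, Egfl7, Mfsd2a, Pltp and Vtn. Those that fell were the carrier genes Slco1a4 and Slco1c1, the sialomucin gene Emcn, the receptor gene Tek and Rgs5. In bulk tissue, fewer cells of a type and less RNA per cell cannot be told apart. The split of 13 higher and 5 lower became 22 and 1 on CPM as deposited and 8 and 5 after quantile normalization, and none of the 18 DEGs changed direction under either. On CPM as deposited the median over all genes moved from 0.04 to 0.30, and that over the vascular genes to 0.55. After quantile normalization the median over the vascular genes was 0.09 and that over all genes -0.02. The shares of all genes called under these scalings are not given, so the splits are description only.

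**Figure D1:**
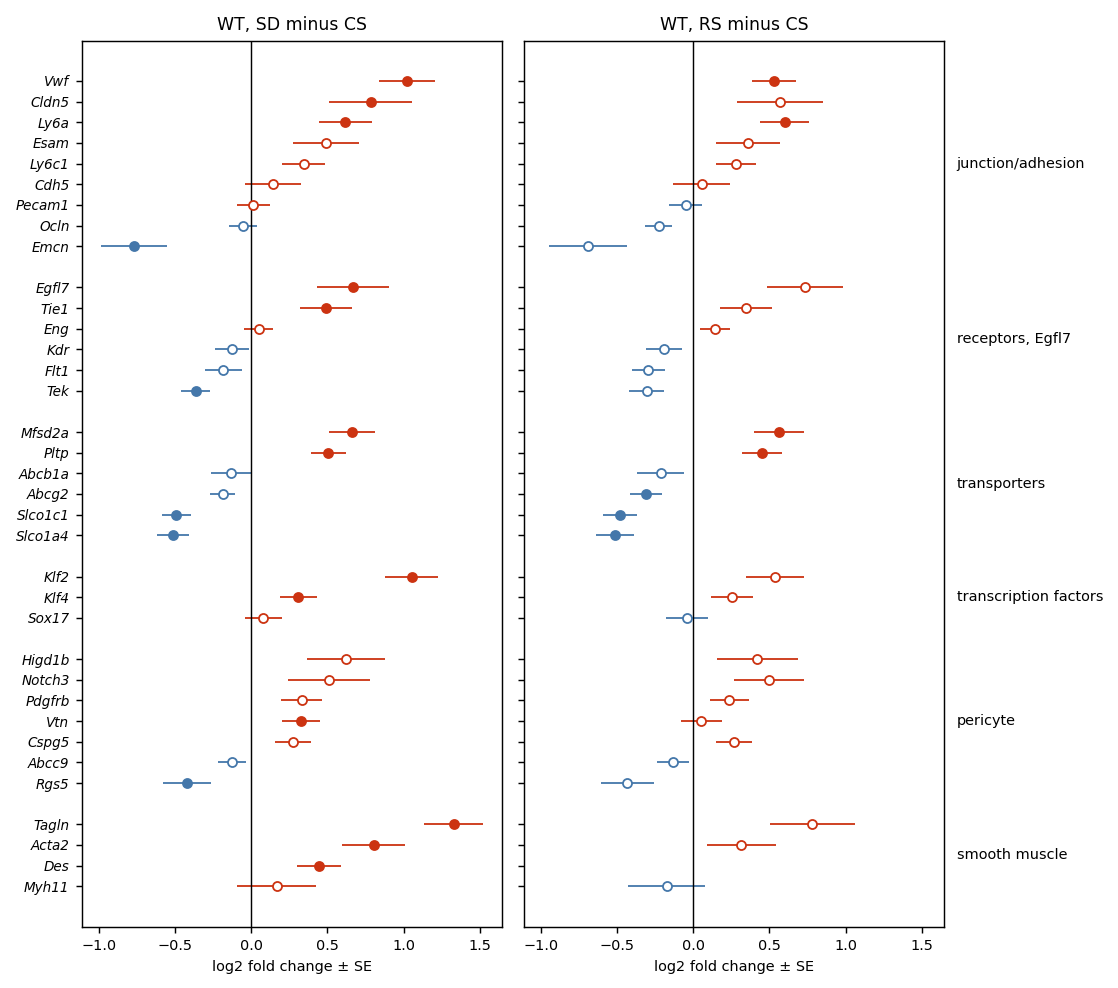
Log2 fold change ± SE of each vascular gene in WT mice, ordered by role, for SD against CS (35 genes) and RS against CS (34 genes), with filled symbols for DEGs. Tagln at 1.33 is the farthest to the right in SD and Emcn at -0.77 the farthest to the left, and 7 genes are filled in RS.

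The tight junction gene Cldn5 (chr16:18776847-18778262, GRCm38), whose product seals the space between endothelial cells, rose in SD. Its lowest, median and highest values were 5.30, 12.8 and 21.5 rescaled CPM in WT CS, against 12.9, 19.7 and 36.1 in SD and 11.6, 16.4 and 29.2 in RS. The SD and CS groups overlapped, and SD replicate 2 held the value of 36.1. The log2 fold change in SD was 0.78 ± 0.27 (SE, limma adjusted p = 0.0271), and it was lost as a call without CS replicate 2, CS replicate 3 or SD replicate 2.

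Vwf, which codes for von Willebrand factor, the clotting protein stored in endothelial cells, was at 4.85, 5.71 and 8.05 in WT CS and at 9.34, 10.7 and 22.2 in SD (lowest, median and highest rescaled CPM). Every SD library lay above every CS library. The log2 fold change was 1.02 ± 0.18 (limma adjusted p = 0.00142), a 2.03-fold rise. Ly6a, an endothelial surface protein also known as Sca-1, was at 6.05, 7.75 and 8.13 in CS and at 8.35, 10.8 and 18.8 in SD, again with no overlap, and rose by 0.62 ± 0.17 (limma adjusted p = 0.0111). Ly6a and Ly6c1 belong to a family with near-identical copies, so the uniquely mapped reads that were counted leave their levels uncertain. Emcn, the endothelial surface sialomucin endomucin, was the lower gene of this role, with 8.95, 11.7 and 27.1 in CS and 5.91, 7.45 and 9.82 in SD. The groups overlapped, and CS replicate 2 held the value of 27.1. Its log2 fold change was -0.77 ± 0.21 (limma adjusted p = 0.0110), and it remained a DEG when any single library was left out. Of the other 5 junction and adhesion genes, Ly6c1 was at 0.34 ± 0.14 and Esam at 0.49 ± 0.22 with adjusted p of 0.0556 and 0.0691, and Ocln, Cdh5 and Pecam1 lay between -0.06 and 0.14.

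Among the 6 receptors and secreted angiogenic genes, Tie1 and Egfl7 rose and Tek fell. Tek codes for the angiopoietin receptor TIE2, and Tie1 for its orphan partner. Tek was at 22.2, 23.6 and 27.7 rescaled CPM in WT CS and at 16.7, 17.8 and 22.6 in SD, and only the highest SD library reached the lowest CS library. Its log2 fold change was -0.36 ± 0.09 (limma adjusted p = 0.00812). Tie1 went the other way, from 2.63, 5.09 and 6.18 in CS to 5.08, 7.36 and 8.17 in SD, with a log2 fold change of 0.49 ± 0.17 (limma adjusted p = 0.0286), and its groups overlapped. Egfl7, a matrix protein secreted by endothelial cells, was at 0.833, 2.50 and 3.88 in CS and at 2.55, 3.90 and 5.18 in SD, with overlapping groups and 0.67 ± 0.24 (limma adjusted p = 0.0301). Flt1 and Kdr, the VEGF receptors, were at -0.18 ± 0.12 and -0.13 ± 0.11, and the TGF-beta co-receptor gene Eng was at 0.05 ± 0.10, none of them DEGs.

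The transporters split. Slco1a4 and Slco1c1 code for organic anion carriers of the barrier, the latter also for thyroxine, and both fell with no overlap between groups. Slco1a4 was at 84.8, 103 and 123 rescaled CPM in WT CS and at 61.1, 68.5 and 83.8 in SD, a log2 fold change of -0.51 ± 0.10 (limma adjusted p = 0.00246). Slco1c1 was at 70.1, 76.4 and 103 in CS and at 52.3, 57.5 and 66.5 in SD, which gave -0.49 ± 0.09 (limma adjusted p = 0.00195). Mfsd2a, the carrier of lysophospholipids with docosahexaenoic acid, and Pltp, the phospholipid transfer protein, rose instead. Mfsd2a was at 3.77, 7.26 and 7.82 in CS and at 8.85, 10.5 and 12.6 in SD, with no overlap and 0.66 ± 0.15 (limma adjusted p = 0.00462). Pltp was at 14.1, 18.8 and 22.1 in CS and at 21.6, 26.9 and 31.1 in SD, and the 2 groups overlapped only between 21.6 and 22.1. The Pltp log2 fold change was 0.51 ± 0.12 (limma adjusted p = 0.00473). The efflux pump genes Abcb1a and Abcg2 were at -0.13 ± 0.13 and -0.19 ± 0.08 and were not DEGs.

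Of the 3 endothelial transcription factors, Klf2 and Klf4 rose and Sox17 was at 0.08 ± 0.12. Klf2 (chr8:72319033-72321656, GRCm38), a zinc finger factor induced by blood flow, was at 0.683, 1.05 and 2.03 rescaled CPM in WT CS and at 2.37, 2.75 and 3.86 in SD. The groups did not overlap, and the log2 fold change was 1.05 ± 0.17 (limma adjusted p = 0.000909), a 2.07-fold rise. Klf2 passed the filter through SD alone. Klf4 was at 1.62, 2.17 and 2.67 in CS and at 2.20, 2.83 and 3.57 in SD, with overlapping groups. It rose by 0.31 ± 0.12 (limma adjusted p = 0.0486), just past both thresholds, and stayed a DEG in 3 of the 13 fits that left out a library.

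MEF2C binds an A/T-rich consensus, and Klf2 is a MEF2 target known from endothelial cells, so the promoter letters of the vascular genes were searched. RefSeq windows of 250 bases before to 50 bases after a transcript start were found for 25 of the 36 genes (GRCm38.p6). The MEF2 consensus was present in 183 of 32851 windows of all genes (0.557%) and among the vascular genes in that of Klf2 alone. The CArG box, which binds serum response factor and is common near contractile genes, was present in 535 windows (1.63%) and in none of the vascular genes with a window, and Tagln and Myh11 had no window. Both motifs read the same on either strand as classes of letters. A match is a description of the letters and not a site of binding. The Klf2 window is shown since it alone held a match. Its 250 bases before the start, chr8:72318812-72319061 on the + strand, have 71.2% GC, and capitals mark the match, 118 to 109 bases before the RefSeq start. The gene annotation used for the coordinates above starts 29 bases inside this window, and from that start the match lies 89 to 80 bases upstream.
Klf2 promoter: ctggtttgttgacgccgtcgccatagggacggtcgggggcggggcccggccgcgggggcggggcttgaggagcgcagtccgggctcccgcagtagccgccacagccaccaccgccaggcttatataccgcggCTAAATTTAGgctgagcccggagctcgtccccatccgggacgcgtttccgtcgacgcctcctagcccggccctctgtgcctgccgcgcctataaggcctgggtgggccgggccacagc

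Mural genes gave 4 higher and 1 lower of 11 tested, with a median of 0.33. Des and Higd1b, which passed the filter through SD alone, are among the 11. The smooth muscle genes Tagln and Acta2, which code for transgelin and for the actin of contractile fibres, had the largest rises among them. Tagln was at 1.56, 2.28 and 3.19 rescaled CPM in WT CS and at 4.02, 6.55 and 10.7 in SD, so that every SD library lay above every CS library, with SD replicate 2 the highest. Its log2 fold change of 1.33 ± 0.19 (limma adjusted p = 0.000539), a 2.51-fold rise, was the largest of the 35 vascular genes. Acta2 was at 4.62, 6.65 and 10.7 in CS and at 7.29, 13.2 and 16.7 in SD, overlapping, with 0.80 ± 0.21 (limma adjusted p = 0.00788). Des rose from a median of 0.882 to 1.30, by 0.44 ± 0.15 (limma adjusted p = 0.0224), in overlapping groups. Myh11, the smooth muscle myosin heavy chain, was at 0.17 ± 0.26 and was not a DEG, so the contractile genes did not all rise.

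Of the 7 pericyte genes, Vtn rose and Rgs5 fell, and 5 were not DEGs. Rgs5 was at 79.4, 99.5 and 153 rescaled CPM in WT CS and at 68.4, 80.1 and 100.1 in SD, overlapping, with -0.42 ± 0.16 (limma adjusted p = 0.0380). Vtn was at 31.1, 38.0 and 49.9 in CS and at 39.5, 47.3 and 63.0 in SD, overlapping, with 0.33 ± 0.12 (limma adjusted p = 0.0408). Rgs5 remained a DEG in 5 and Vtn in 3 of 13 fits that left out a library. The PDGF receptor gene Pdgfrb was at 0.33 ± 0.14, Notch3 at 0.51 ± 0.27 and Higd1b at 0.62 ± 0.25, with adjusted p of 0.0547, 0.120 and 0.0533, while Cspg5 was at 0.27 ± 0.12 and the potassium channel subunit gene Abcc9 at -0.13 ± 0.09.

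**Figure D2:**
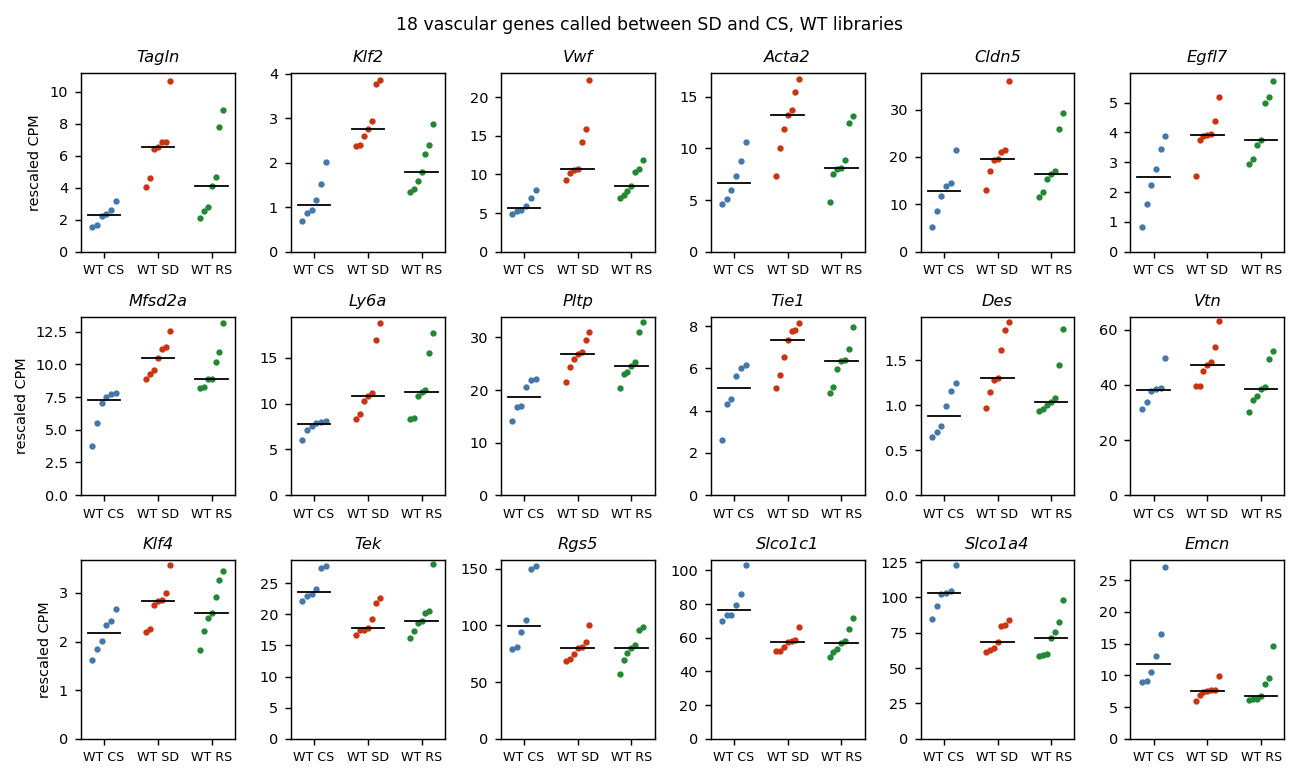
Rescaled CPM (linear axis from 0) in each WT library of the 18 vascular genes that were DEGs between SD and CS, with a dot for each library in CS (6), SD (7) and RS (7) and a bar at the median. Klf2, Vwf, Tagln, Ly6a, Mfsd2a, Slco1a4 and Slco1c1 show no overlap between CS and SD.

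In all, 7 of 35 vascular genes had no overlap between WT CS and SD, where 15.1% of all genes tested had none. Leaving out a single library gave 11 to 20 DEGs among the vascular genes, with 11 without CS replicate 3. The 11 genes called in every such fit were Slco1a4, Slco1c1, Emcn, Tek, Pltp, Ly6a, Mfsd2a, Acta2, Vwf, Klf2 and Tagln. On whole reads recovered from the CPM, edgeR called 18 vascular genes, 17 of them shared, and DESeq2 called 19, with all 18 shared. A replicate block, fitted on the 5 libraries a group with shared numbers, kept 3 of the 18: Vwf, Klf2 and Tagln. Klf2, which passed the filter through SD alone, is counted in the 7, the 11 and the 3 and lends them no support.

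The direction of change followed the base composition of the transcripts. The 13 genes that rose had longest transcripts of 48.1% to 61.6% GC (median 56.5%), and the 5 that fell had 40.3% to 47.1% (median 41.1%). Of 22 tested genes above 50% GC, 11 rose and none fell, with a median log2 fold change of 0.47. Klf2, Egfl7 and Des, which passed the filter through SD alone, are among the 11, and Higd1b, which did too, is in the median. Of 13 at or below 50%, 2 rose and 5 fell, with a median of -0.13. The shares of all genes called on each side of 50% GC are not given. The split is thus description and is not read as particular to the vascular genes. Across the 35 vascular genes, which are not independent replicates, the Spearman rho of log2 fold change and GC content was 0.716, and it was 0.721 across all genes. After a correction for both base composition and transcript length, fitted on all genes (below, the GC correction), the medians of the GC-rich and GC-poor genes were 0.06 and 0.02, and the rho over the vascular genes was 0.229.

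With that correction 8 vascular genes were DEGs in WT SD in place of 18. The correction acts on all genes. The share of all genes called with it is not given, here or below, so the drop is not read as particular to the vascular genes. Tagln at 1.07, Vwf at 0.76, Acta2 at 0.74, Ly6a at 0.43, Klf2 at 0.39, Mfsd2a at 0.36 and Emcn at -0.44 were DEGs before and after it. Eng became a DEG at -0.41 (limma adjusted p = 0.0317). Cldn5 moved to 0.11, Tie1 to 0.05, Pltp to 0.05 and Slco1a4 to -0.17, none with an adjusted p at the threshold. Tek at -0.25 and Slco1c1 at -0.26 kept adjusted p of 0.0251 and 0.00693, with folds under the threshold of 0.3. Klf4 and Vtn changed sign, to -0.00798 and -0.0648.

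**Figure D3:**
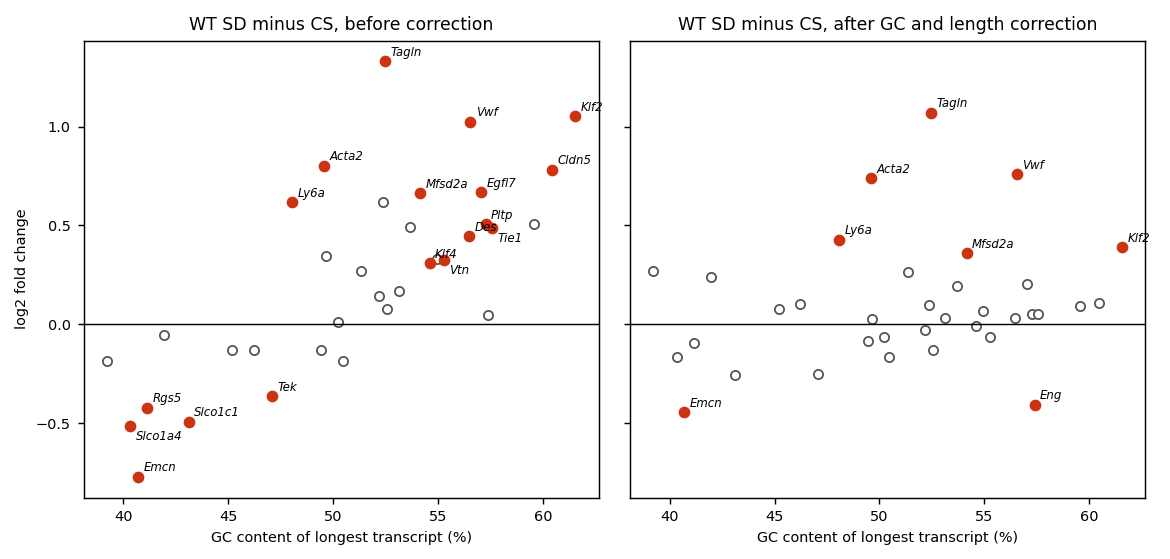
Log2 fold change of each vascular gene between WT SD and CS against the GC content of its longest transcript in percent, before and after that correction, with red filled symbols for DEGs. The rise with GC content before the correction (rho 0.716) is smaller after it (rho 0.229), where Tagln at 1.07 stands highest.

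Markers of some other cell types moved with SD in WT mice. Their counts are to be read against the 24.6% of all genes called higher and 20.5% called lower. The summed level of 11 meningeal fibroblast genes was 114 to 561 rescaled CPM in CS, 536 to 1004 in SD and 141 to 793 in RS, and 8 of 10 tested were higher in SD, with Col1a1 at a log2 fold change of 2.34. The sum of 5 blood cell genes was 28.2 to 118 in CS, 97.9 to 285 in SD and 85.3 to 139 in RS, and all 5 were higher in SD. The choroid plexus sum was 15.4 to 192 in CS, with the 192 in CS replicate 1, and 9.01 to 16.4 in SD. Of 3 choroid plexus genes tested 0 were higher and 1 lower. Of 7 astrocyte genes 2 were higher and 0 lower, and of 7 oligodendrocyte lineage genes 1 was higher and 1 lower. Of 6 microglia and macrophage genes 2 were higher and 1 lower. Excitatory neuron genes gave 0 higher and 1 lower of 5, and inhibitory neuron genes 2 higher and 0 lower of 6. The summed level of the 24 endothelial genes was 465.9 to 569 in CS and 444 to 492 in SD, and that of the 12 mural genes 289 to 426 and 331 to 399, so these sums overlapped. Cspg5 alone made up 88.8 to 155 of the mural sum in CS and 130 to 174 in SD, and the other 11 genes summed to 161 to 271 and 182 to 225. The part of the fibroblast and blood markers in the vascular gene results was not tested.

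Genes of the same pathways that are outside the 36 were also counted. These counts are to be read against the 45.1% of all genes called in WT SD (24.6% higher and 20.5% lower). Of the 86 genes tested in these lists, 34 were higher and 12 lower. Of 14 ligands of vascular receptors tested in WT SD, 8 were higher and 3 lower, with Vegfc, a ligand of lymphatic VEGF receptors, at -0.94 and Pgf, placental growth factor, at 0.66. Of 14 genes of the Wnt pathway that maintains the barrier, 6 were higher and 2 lower, among them the receptor gene Adgra2 (0.85) and the ligands Wnt7b (0.74) and Wnt7a (0.64). Of 18 other endothelial barrier genes 7 were higher and 2 lower, with the caveolar gene Ptrf at 1.22, the amino acid carrier gene Slc7a5 at 0.61 and the glucose transporter gene Slc2a1 at 0.56. Of 19 endothelial regulators 7 were higher and 4 lower, with Thbd, which codes for thrombomodulin, at 1.29 and Adgrl4 at -0.62. Of 21 other mural genes 6 were higher and 1 lower, with the proteoglycan gene Cspg4 at 0.77 and the connexin gene Gja4 at 0.75. Cspg4 is also counted in the oligodendrocyte lineage list, so in bulk tissue its value cannot be assigned to mural cells. The medians of these lists were 0.48, 0.15, 0.17, 0.05 and 0.31 in that order, beside 0.04 over all genes. With the GC correction the DEGs of these lists numbered 3 ligands, 4 Wnt pathway genes, 3 barrier genes, 4 regulators and 4 mural genes, and the medians were 0.20, 0.17, 0.05, -0.07 and 0.05.

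After recovery sleep, 7 of 34 vascular genes tested were DEGs against CS, 4 higher and 3 lower, where 17.5% of 12752 genes were DEGs (9.28% higher and 8.22% lower). The RS and SD comparisons share the 6 CS libraries. Ly6a, Mfsd2a, Vwf and Pltp were higher, and Slco1a4, Slco1c1 and the efflux pump gene Abcg2 were lower. Of 10 mural genes, 0 were DEGs by limma or edgeR and 2 by DESeq2. An unadjusted limma p under 0.05 was held by 4 of these 10 and by 5913 of the 12752 genes. The median was 0.19 over the vascular genes and 0.02 over all genes. Klf2, Egfl7 and Higd1b, which passed the filter through RS alone, are in the median of the vascular genes. The split of 4 and 3 became 7 and 1 on CPM as deposited and 0 and 5 after quantile normalization.

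Ly6a was at 8.34, 11.3 and 17.7 rescaled CPM in RS, above all CS libraries, with a log2 fold change of 0.60 ± 0.16 (limma adjusted p = 0.0359). Mfsd2a was at 8.17, 8.91 and 13.2, also above all of CS, with 0.56 ± 0.16 (limma adjusted p = 0.0392). These were 2 of 34 vascular genes with no overlap between RS and CS, where 3.72% of all genes had none. Vwf at 6.89, 8.45 and 11.8 in RS overlapped CS, with 0.53 ± 0.14 (limma adjusted p = 0.0365). Pltp at 20.3, 24.5 and 33 also overlapped, with 0.45 ± 0.13 (limma adjusted p = 0.0394). All 4 were thus higher in median than in CS, and the carriers and the efflux pump gene were lower. Slco1a4 at 58.6, 71.1 and 98.0 in RS was -0.51 ± 0.13 (limma adjusted p = 0.0335), and Slco1c1 at 48.4, 56.8 and 71.8 was -0.48 ± 0.11 (limma adjusted p = 0.0329). Abcg2, at 25.9, 27.8 and 33.3 in CS and 17.3, 23.9 and 26.6 in RS, was -0.31 ± 0.10 (limma adjusted p = 0.0497), in overlapping groups.

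These 7 calls were sensitive to single libraries. Leaving out one library gave 0 to 13 DEGs among the vascular genes: 0 without CS replicate 1, 2 or 3 or RS replicate 3, 4, 5, 6 or 12, and 13 without RS replicate 1. With the GC correction, Ly6a at 0.45 was the DEG that remained, and Abcg2 moved to 0.0354. On recovered reads, edgeR called 6 of the 7 and DESeq2 called 13 genes, all 7 included. A replicate block, fitted on 6 libraries a group, also gave 13 with all 7 included. At an unadjusted limma p under 0.05 there were 17 of 34, where 5913 of 12752 genes had such a p.

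For the 18 DEGs of SD, the values of RS stood on the same side of CS wherever a gene was tested. Of the 13 that rose in SD, 12 were tested in RS and had positive log2 fold changes of 0.05 to 0.78, with a median of 0.53. Klf2 and Egfl7, among the 12, passed the filter through RS alone. The 5 that fell in SD had -0.69 to -0.31 in RS. Both comparisons use the same CS libraries, so this is a description and no independent support. Klf2 was at 1.35, 1.79 and 2.87 rescaled CPM in RS, with 0.54 ± 0.19 against CS (limma adjusted p = 0.0552), and Tagln at 2.10, 4.14 and 8.84, with 0.78 ± 0.28 (limma adjusted p = 0.0570). Cldn5 was at 0.57 ± 0.28 and Acta2 at 0.32 ± 0.23 against CS, with adjusted p of 0.126 and 0.267. Compared directly with SD, 0 of 35 vascular genes were DEGs in RS by limma, edgeR or DESeq2. By limma 0.0232% of all genes were (0.0155% higher and 0.00774% lower). At an unadjusted limma p under 0.05 there were 4 of the 35, where 683 of 12921 genes had such a p. All 4 had lower values in RS: Klf2 (-0.51), Vwf (-0.49), Acta2 (-0.49) and Vtn (-0.27). The smallest limma adjusted p was 0.374. The median was -0.09 over the vascular genes and 0.00 over all genes.

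In Mef2c f/f mice, 0 of 34 vascular genes were DEGs between SD and CS by limma, edgeR or DESeq2. By limma 0.0403% of all genes were DEGs (0.0242% higher and 0.0161% lower), and the shares by edgeR and DESeq2 are not given. The study, with DESeq2, reported many more DEGs over all genes for this comparison. The 0 here thus does not show a lack of response. At an unadjusted limma p under 0.05 there were 5 of the 34, where 2111 of 12410 genes had such a p. The 5 were Eng (-0.42), Flt1 (-0.21), Rgs5 (0.25), Ly6c1 (0.32) and Mfsd2a (0.41). The smallest adjusted p was 0.195. The median log2 fold change was 0.01 over the vascular genes and 0.00 over all genes. The 12 tested genes that rose in WT SD had 5 positive and 7 negative values in Mef2c f/f mice, with a median of -0.01. Groups did not overlap for 3 of 34 vascular genes, where this held for 17.4% of all genes.

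Vwf went from 10.3, 10.6, 7.79 and 14.3 rescaled CPM in the CS libraries of Mef2c f/f mice to 7.11, 8.55 and 9.01 in SD. Tagln was at 3.69, 3.23, 2.53 and 3.23 in CS and at 4.31, 3.58 and 2.96 in SD. Klf2 was at 1.16, 1.90, 0.927 and 1.43 in CS and at 2.02, 2.17 and 1.47 in SD. The groups overlapped for each of these 3 genes, unlike those of WT mice.

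In Mef2c-cKO mice, 0 of 34 vascular genes were DEGs between SD and CS by limma, edgeR or DESeq2, where 0.0234% of all genes were by limma. Of the 34, 2 had an unadjusted limma p under 0.05. These were Slco1a4 (-0.45 ± 0.12) and Flt1 (0.30 ± 0.10). Slco1a4 was at 57.6, 61.6 and 75.8 rescaled CPM in CS and at 52.5, 45.3 and 44.1 in SD, with no overlap. It was 1 of 5 vascular genes with none, where 9.05% of all genes had none. Single libraries stood apart in this genotype and touch the mural and endothelial values. CS replicate 8 held Vwf at 23.4 beside 5.90 and 7.74, Acta2 at 1.5 beside 4.84 and 3.35, and a microglia and macrophage marker sum of 339 beside 155 and 179. CS replicate 5 had a choroid plexus marker sum of 321 beside 8.21 and 6.69, and SD replicate 6 had Tagln at 25.5 beside 4.02 and 3.83. The median was 0.03 over the vascular genes and -0.01 over all genes.

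**Figure D4:**
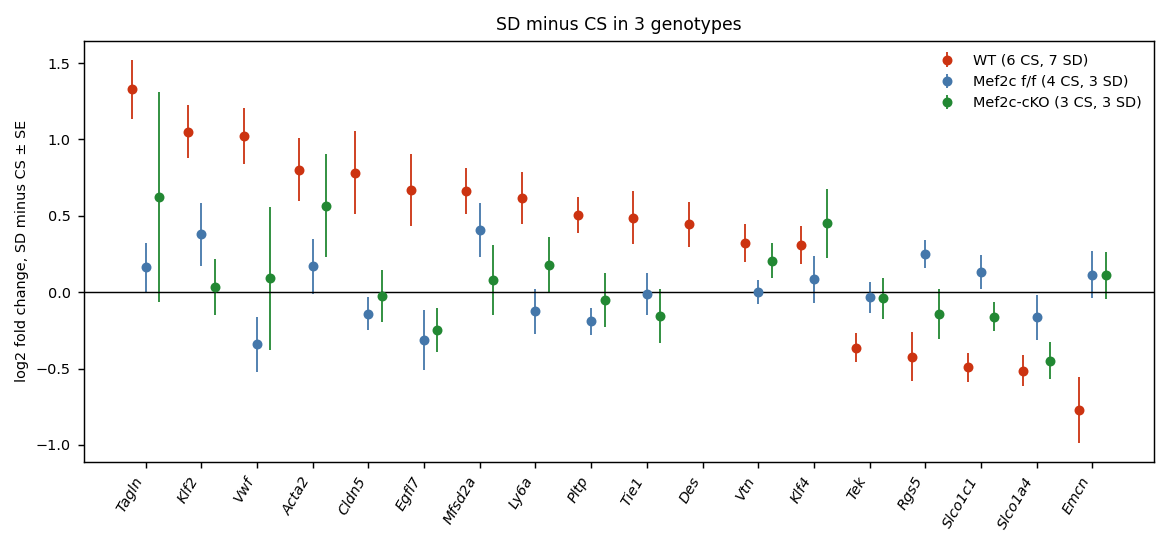
Log2 fold change ± SE between SD and CS of the 18 vascular genes that were DEGs in WT mice, in WT, Mef2c f/f and Mef2c-cKO mice, with Des shown in WT only. Tagln is at 1.33 in WT, 0.16 in Mef2c f/f and 0.62 ± 0.69 in Mef2c-cKO mice, and Vwf at 1.02, -0.34 and 0.09.

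The difference between the SD effects of Mef2c f/f and WT mice was tested as an interaction. It passed an adjusted p of 0.05 for 4 of 35 vascular genes, 1 positive and 3 negative, where 15.1% of 13106 genes passed (9.35% positive and 5.78% negative). Vwf was at -1.37 ± 0.30 (limma adjusted p = 0.0180), Tagln at -1.16 ± 0.30 (limma adjusted p = 0.0246) and Pltp at -0.70 ± 0.17 (limma adjusted p = 0.0233), so that the SD effect was smaller or negative in Mef2c f/f mice. Slco1c1 was at 0.62 ± 0.16 (limma adjusted p = 0.0236). It was at 58.6, 48.3, 53.9 and 43.3 rescaled CPM in CS and at 56.9, 50.2 and 60.1 in SD of Mef2c f/f mice. Pltp was at 19.4, 18.9, 17.5 and 20.4 in CS and at 16.4, 17.9 and 15.7 in SD of the same mice, where its values overlapped between groups. The count was 0 without Mef2c f/f CS replicate 4, SD replicate 1 or SD replicate 3, 1 without CS replicate 2 and 9 without WT CS replicate 4 or 5. The split was 0 and 8 on CPM as deposited and 3 and 3 after quantile normalization, and with the GC correction only Vwf passed, at -1.01. WT libraries differed from all others in a further way: their listed genes summed to 925580 to 985958 CPM in place of 1000000. Depth differed too. WT libraries held 44395583 to 218548740 reads in CS and 57394212 to 145658838 in SD. Those of Mef2c f/f mice held 18935045 to 40576940 and 35010033 to 52918796. The study also names incomplete congenicity of the backcrossed Mef2c f/f mice as a possible source of differences from WT. The floxed alleles, genetic background and these differences between the libraries cannot be told apart.

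The blood marker sum, which rose with SD in WT mice, stood the other way in Mef2c f/f mice, at 123 to 183 rescaled CPM in CS and 56.4 to 105 in SD. The fibroblast marker sum was 372 to 473 in CS and 394 to 496 in SD of those mice. Their part in the interaction was not tested.

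Mef2c-cKO and Mef2c f/f mice were then compared within each sleep state. Mef2c itself, the targeted gene, was at 1431 ± 323 rescaled CPM in WT CS (SD, n = 6), 815 ± 112 in WT SD and 924 ± 194 in WT RS, with -0.80 ± 0.13 in SD (SE, limma adjusted p = 0.00109). It was at 1207, 1098, 1203 and 1080.1 in Mef2c f/f CS and at 957, 1608 and 1727 in Mef2c-cKO CS. The value of the whole gene does not resolve the floxed exon, so it does not check the deletion.

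In CS, 1 of 34 vascular genes was a DEG between the genotypes, where 7.67% of 12681 genes were (3.17% higher and 4.5% lower in Mef2c-cKO mice). Flt1, which codes for VEGF receptor 1, was at 42.3, 40.4, 43.8 and 40.2 rescaled CPM in Mef2c f/f CS and at 28.6, 32.7 and 26.7 in Mef2c-cKO CS. All Mef2c-cKO libraries lay below all Mef2c f/f libraries, as did those of 26.9% of all genes in either direction, and Flt1 was the 1 vascular gene with no overlap. Its log2 fold change was -0.50 ± 0.09 (limma adjusted p = 0.0189), and -0.45 with the GC correction. The call was lost without Mef2c f/f CS replicate 2 or Mef2c-cKO CS replicate 5. The median was 0.04 over the vascular genes and 0.03 over all genes. In SD, Flt1 was at 34.1, 39.3 and 34.3 in Mef2c f/f and at 37.9, 36.5 and 34.1 in Mef2c-cKO mice, so the groups overlapped. In the CS comparison 2 of 5 blood cell genes were lower in Mef2c-cKO mice (summed level 10.7 to 108 against 123 to 183) and 3 of 11 meningeal fibroblast genes were higher (233 to 497 against 372 to 473). Their part in the Flt1 result was not tested.

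In SD, 5 of 34 vascular genes were DEGs between the genotypes, 3 higher and 2 lower in Mef2c-cKO mice, where 15.1% of 12774 genes were (9.1% higher and 5.99% lower). Kdr, Cldn5 and Vtn were higher, and Slco1a4 and Abcg2 were lower. All 5 had no overlap between groups, and 12 of 34 vascular genes had none, where 40.3% of all genes had none. Kdr, which codes for VEGF receptor 2, was at 7.80, 8.06 and 9.67 rescaled CPM in Mef2c f/f SD and at 12.8, 13.6 and 10.4 in Mef2c-cKO SD, with 0.50 ± 0.13 (limma adjusted p = 0.0334). Cldn5 was at 12.7, 14.4 and 11.6 against 16.3, 15.8 and 18.4, with 0.38 ± 0.11 (limma adjusted p = 0.0427). The tight junction gene and the VEGF receptor gene thus stood higher in every Mef2c-cKO SD library than in any Mef2c f/f SD library. In CS the genotypes overlapped for both genes. Vtn was at 29.3, 28.7 and 27.6 against 37.8, 31.7 and 38.6, with 0.33 ± 0.09 (limma adjusted p = 0.0385). Slco1a4 was at 64.3, 58.7 and 63.7 against 52.5, 45.3 and 44.1, with -0.40 ± 0.08 (limma adjusted p = 0.0159). The efflux pump gene Abcg2 was at 27.6, 27.8 and 25.7 against 21.8, 20.1 and 21.0, with -0.36 ± 0.07 (limma adjusted p = 0.0149).

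With the GC correction 3 of the 5 remained DEGs, Kdr at 0.47, Slco1a4 at -0.38 and Abcg2 at -0.30, while Cldn5 was at 0.16 and Vtn at 0.17. The count was 0 without Mef2c f/f SD replicate 1, 2 without Mef2c f/f SD replicate 3, 3 without Mef2c f/f SD replicate 2 or Mef2c-cKO SD replicate 5 or 7, and 7 without Mef2c-cKO SD replicate 6. The split of 3 and 2 became 4 and 1 on CPM as deposited and 0 and 2 after quantile normalization. The median was 0.00 over the vascular genes and 0.01 over all genes. Markers of other cells differed in the same comparison, where 9.1% of all genes were higher and 5.99% lower. Of 4 choroid plexus genes tested 3 were higher in Mef2c-cKO SD (summed level 9.43 to 23.6 against 5.41 to 9.23), as were 3 of 6 microglia and macrophage genes (175 to 186 against 139 to 149) and 2 of 11 fibroblast genes (453 to 686 against 394 to 496). Of 6 inhibitory neuron genes 3 were higher and 1 lower, and of 7 astrocyte genes 2 were higher. The part of these markers in the vascular gene results was not tested.

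**Figure D5:**
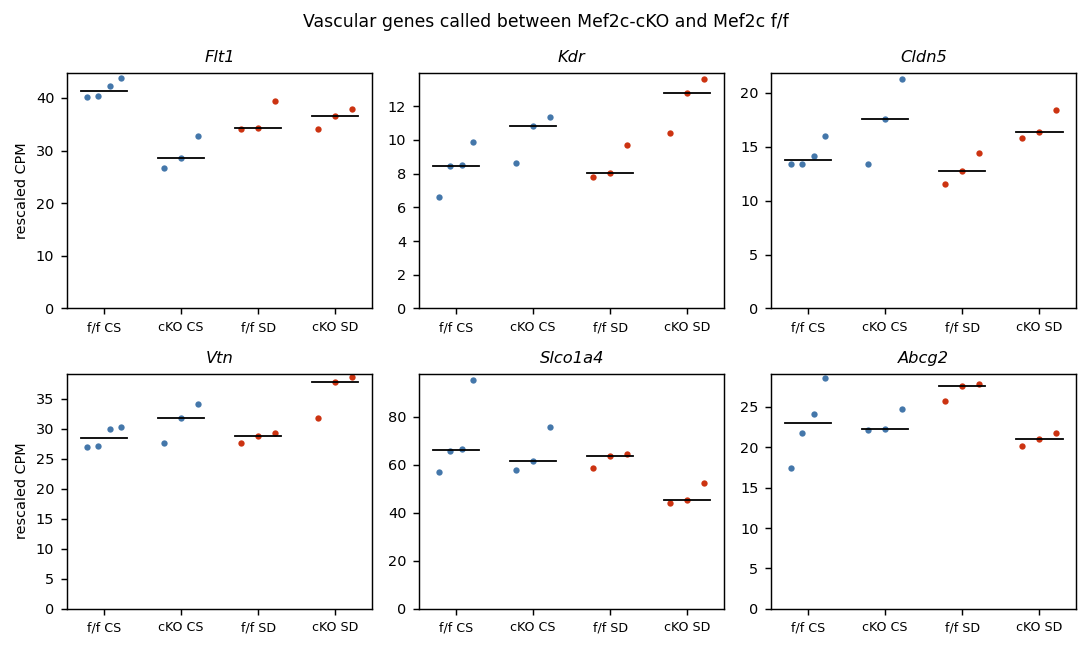
Rescaled CPM (linear axis from 0) in each library of the 2 floxed genotypes in CS and SD for the 6 vascular genes that were DEGs between the genotypes in CS or SD, with a dot for each library. Flt1 is lower in Mef2c-cKO mice in CS, and the other 5 genes show no overlap between genotypes in SD.

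The interaction of genotype and SD between Mef2c-cKO and Mef2c f/f mice passed for 0 of 34 vascular genes by limma and edgeR and for 1 by DESeq2, where 0.00778% of all genes passed by limma. The 1 gene with an unadjusted limma p under 0.05 was Flt1, at 0.51 ± 0.12 (limma adjusted p = 0.343), and it was also the 1 called by DESeq2. Such a p was held by 1005 of 12860 genes. The median was 0.07 over the vascular genes and 0.00 over all genes. The smallest number of libraries in a group was 3, which limits what the fits can resolve here.

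In the pathway lists outside the 36, counts are to be read against the 15.1% of all genes called in SD and 7.67% in CS. Mef2c-cKO mice in SD had 3 of 13 ligands of vascular receptors higher and 0 lower than Mef2c f/f mice: Pgf (1.04), and Angpt2 (0.98) and Angpt1 (0.79), the angiopoietin genes whose products bind TIE2. Of 14 Wnt pathway genes 4 were higher and 0 lower, with the ligand gene Wnt7b at 1.12 ± 0.11 (limma adjusted p = 0.000765), the Wnt inhibitor gene Apcdd1 at 0.88 and the receptor gene Adgra2 at 0.78. Of 18 other barrier genes 3 were higher and 2 lower, and of 19 other mural genes 2 were higher and 0 lower, with Ednrb, an endothelin receptor gene, at 0.61. Of 18 endothelial regulators 1 was higher, the adhesion gene Icam1 at 0.68. In CS each list had 1 DEG. Higher in Mef2c-cKO mice were Angpt1 (0.82) of 12 ligands, Ednrb (1.14) of 19 mural genes, Itm2a (0.50) of 18 barrier genes and Vcam1 (0.65), an adhesion gene of activated endothelium, of 18 regulators, and the Wnt effector gene Lef1 (-0.47) of 13 Wnt pathway genes was lower. Between SD and CS, none of the 5 vascular lists outside the 36 had a DEG by limma within Mef2c f/f or within Mef2c-cKO mice. In Mef2c f/f mice 11 of their 74 genes tested had an unadjusted limma p under 0.05, where 2111 of 12410 genes did, and DESeq2 called 3 and edgeR 0. In Mef2c-cKO mice 5 of 82 had such a p, where 391 of 12810 genes did, and both other tools called 0.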

How the data were processed

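Per the study's methods, stranded poly(A) RNA-seq reads passed through FASTQC and Trimmomatic, STAR (mm10) aligned them, and HTSeq gave counts of uniquely mapped reads per gene, from which the authors made and deposited CPM (edgeR) for 33 libraries. Each of the 711645 values lay within 0.01 of a whole number of reads. Here each library's CPM was divided by its median-of-ratios factor (0.716 to 1.14) and taken to log2 after adding 0.5. The groups compared were fitted alone with limma 3.58.1 (lmFit, eBayes with a trend) in R 4.3.3, two-sided. Genes needed a CPM of 1 in all replicates of a group. The thresholds were a Benjamini-Hochberg adjusted p of 0.05 and, except for interactions, a log2 fold change of 0.3 in size. Fold changes on log2(CPM + 0.5) understate changes of genes with low values. The fits were tested on simulated data.

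Alternatives tried were quantile normalization, CPM as deposited, pseudocounts of 0.1 and 1, no filter, edgeR 4.0.16 and DESeq2 1.42.0 on recovered reads, a spline correction for GC content and length of the longest transcript (GENCODE, GRCm38), a replicate block, and each library left out. All vascular genes are accounted for, DEGs with their values. Of each other list at most 4 DEGs with the largest change are named. Members and lists were chosen with earlier results of these data known. Replicates were separate mice. Depth gave 18935045 to 249046089 reads a library.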

Additional observations from a re-analysis of the deposited data

Results flagged for a closer look

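Of 144 combinations of a vascular gene and a group of 4 to 10 libraries, 10 had a highest or lowest library that stood farther from the others than Dixon's 95% critical value allows, where chance gives about 1 in 20. In WT SD these were Cldn5 at 36.1 rescaled CPM in replicate 2 (the others at 12.9 to 21.4), Tagln at 10.7 in the same replicate (4.02 to 6.89) and Cdh5 at 13.5 in replicate 1 (10.5 to 11.5). WT RS replicate 1 was highest for Emcn at 14.6 (6.07 to 9.50), Tek at 28.1 (16.2 to 20.5) and Abcc9 at 12.9 (8.75 to 10.3). In the same group Myh11 was lowest at 5.69 in replicate 4 (9.61 to 12.1) and Cnn1 highest at 0.947 in replicate 6 (0.184 to 0.375). Mef2c f/f CS replicate 1 was highest for Tek at 16.9 (14.9 to 15.2) and lowest for Notch3 at 4.90 (6.71 to 6.86).

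The SD effect differed between Mef2c f/f and WT mice for Vwf by -1.37, for Tagln by -1.16, for Pltp by -0.70 and for Slco1c1 by 0.62 (log2, limma interaction).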

How the results depend on the processing

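Some alternatives moved the count of vascular DEGs. The correction for GC content and length gave 8 for WT SD against CS, 1 for WT RS against CS, 3 for Mef2c-cKO against Mef2c f/f in SD and 1 for the interaction of Mef2c f/f and WT, and it turned Klf4 to -0.00798 and Vtn to -0.0648 in WT SD and Abcg2 to 0.0354 in WT RS. Without a filter the counts were 1 for WT RS and 3 for the genotypes in SD, and quantile normalization gave 2 for the latter. DESeq2 gave 13 for WT RS, 1 for the interaction of Mef2c-cKO and Mef2c f/f and 8 for that of Mef2c f/f and WT, which was also 8 on CPM as deposited. The causes were not tested. Shares of all genes called under these alternatives are not given beside the counts, so a moved count is not read as particular to the vascular genes. Leaving out 1 library gave 11 to 20 in WT SD, 0 to 13 in WT RS, 0 to 1 between the genotypes in CS, 0 to 7 in SD and 0 to 9 for the interaction of Mef2c f/f and WT. The other 4 comparisons stayed at 0 in those fits. Of the fold changes of single DEGs, pseudocounts of 0.1 and 1 ended 2 and 1 calls of 35.

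Replicate numbers were not taken to pair the libraries, since no comparison with 3 or more shared numbers had every same-numbered pair correlated over 0.1. The correlations of deviations ran from -0.329 to 0.554 for WT SD and CS, 0.0681 to 0.666 for RS and CS (all 6 positive, 5 over 0.1), -0.726 to 0.333 for RS and SD, 0.0467 to 0.265 in Mef2c f/f and 0.0689 to 0.150 in Mef2c-cKO mice. With a replicate block the count was 3 for WT SD and 13 for WT RS. It was 0 for RS against SD and for SD against CS in Mef2c f/f and Mef2c-cKO mice, as without it. The block was fitted only on libraries whose number occurs in both groups, 5 a group for WT SD and CS and 6 a group for RS and CS. Fewer libraries and the block itself thus both enter the change in count. Libraries that correlated best with their own number were 4 of 10 for WT SD and CS, 4 of 12 for RS and CS, 1 of 10 for RS and SD, 2 of 6 in Mef2c f/f mice and 4 of 4 in Mef2c-cKO mice. Between Mef2c-cKO and Mef2c f/f mice no block could be fitted, since their libraries share no replicate numbers, and neither interaction was fitted with a block. Groups of 3 or 4 libraries limit what a fit without a DEG can show.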
